A study of Mus musculus with 18 samples.

Results

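Cholesterol and fatty acid synthesis was followed through 37 genes of sterol synthesis, fatty acid synthesis and cholesterol export in mouse basophils grown from bone marrow. Basophils are rare granulocytes that carry the IgE receptor and release histamine and type 2 cytokines. A gene entered when the platform annotation gave its symbol to a probe, and the probe was kept when its detection p was under 0.05 on 3 or more of the 18 arrays. Of the 37 genes 33 had a probe (57 probes) and 29 were kept (43 probes), out of 9973 kept genes in all. The genes without such a probe, Acat2, Hmgcs1, Fdft1 and Nr1h2, were not analysed here. Dhcr7, Acaca, Nr1h3 and Abca1 had a probe that was not kept, so they were not tested.

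The cells were bone marrow-derived basophils (BMBs) of C57BL/6J mice aged 4 to 6 weeks, hybridised to Illumina bead arrays. Wild type (WT) cells and cells lacking ST2, the receptor chain for interleukin 33 (ST2KO), were each left unstimulated, stimulated with IgE for 4 h, or stimulated with IL-33 for 4 h, with 3 arrays in each of the 6 groups. The labels give no antigen, no dose and no time for the unstimulated cells, and they do not say whether replicates came from separate mice or cultures, so each p-value reflects only how far these arrays differ, and part of that spread may be technical. No probe carried the symbol Il1rl1 (the ST2 gene), so the genotype could not be checked on its own transcript.

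Cells make cholesterol from acetyl-CoA through mevalonate, squalene and lanosterol. The transcription factors SREBP1 and SREBP2 (genes Srebf1 and Srebf2) switch on the genes of this route and of fatty acid synthesis when sterols in the endoplasmic reticulum run low: SCAP escorts them to the Golgi for cleavage, and the INSIG proteins hold them back. LXR receptors act in the opposite situation, when oxidised sterols accumulate, and raise the exporters ABCA1 and ABCG1. In myeloid cells these programmes are known to shift during activation, and unsaturated fatty acids feed the synthesis of leukotrienes and prostaglandins.

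Promoter sequences of 5 members whose transcripts rose or fell after IgE are given here, so that the control regions of early enzymes (Mvk and Lss), neighbouring late enzymes that moved in opposite directions (Hsd17b7 and Nsdhl) and a regulator (Insig1) can be compared. Each is the 250 bases before the RefSeq start on GRCm38.p6, read 5′ to 3′ in the gene's direction. Capitals mark the CCAAT box (CCAAT), the GC box (GGGCGG) and the E-box (CACGTG) on either strand, and no marked matches overlapped. Mvk lies at chr5:114444019-114444268 (+), Lss at chr10:76531355-76531604 (+), Hsd17b7 at chr1:169969206-169969455 (-), Nsdhl at chrX:72918271-72918520 (+) and Insig1 at chr5:28071162-28071411 (+).
Mvk: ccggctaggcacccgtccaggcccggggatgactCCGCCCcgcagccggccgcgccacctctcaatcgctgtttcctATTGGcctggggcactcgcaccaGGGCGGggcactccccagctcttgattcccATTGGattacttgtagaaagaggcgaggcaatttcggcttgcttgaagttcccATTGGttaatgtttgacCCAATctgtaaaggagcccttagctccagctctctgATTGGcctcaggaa
Lss: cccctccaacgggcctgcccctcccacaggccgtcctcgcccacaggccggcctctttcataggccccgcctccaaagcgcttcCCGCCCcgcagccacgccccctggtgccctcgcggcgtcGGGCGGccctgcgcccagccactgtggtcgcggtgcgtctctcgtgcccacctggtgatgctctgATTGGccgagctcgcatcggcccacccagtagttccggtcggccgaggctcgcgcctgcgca
Hsd17b7: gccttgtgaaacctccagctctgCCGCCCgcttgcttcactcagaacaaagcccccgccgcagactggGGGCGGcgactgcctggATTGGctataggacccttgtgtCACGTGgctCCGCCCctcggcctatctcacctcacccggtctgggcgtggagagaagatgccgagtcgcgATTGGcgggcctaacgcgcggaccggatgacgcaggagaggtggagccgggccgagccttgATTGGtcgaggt
Nsdhl: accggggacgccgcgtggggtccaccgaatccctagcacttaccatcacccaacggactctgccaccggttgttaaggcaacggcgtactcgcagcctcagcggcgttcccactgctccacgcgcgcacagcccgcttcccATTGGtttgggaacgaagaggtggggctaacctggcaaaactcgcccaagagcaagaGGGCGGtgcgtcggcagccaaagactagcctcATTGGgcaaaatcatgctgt
Insig1: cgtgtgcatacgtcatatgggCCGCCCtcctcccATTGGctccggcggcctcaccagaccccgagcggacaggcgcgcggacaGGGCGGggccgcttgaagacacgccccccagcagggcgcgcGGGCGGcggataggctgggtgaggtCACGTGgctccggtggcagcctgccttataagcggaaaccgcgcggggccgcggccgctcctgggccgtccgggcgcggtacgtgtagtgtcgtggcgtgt

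A RefSeq promoter was found for 22 of the 29 kept genes (28 promoters). The CCAAT box was present in 64.3% of them against 33.8% of all 32851 promoters of that length, and the GC box in 71.4% against 32.7%. The E-box was present in 14.3% against 6.02%. The 4 genes with an E-box were Hsd17b7, Sc5d, Scap and Insig1. The sterol regulatory element in the form TCACNCCAC was in none of the 28 promoters and in 1.05% of all. These are letter matches in a short window and show no binding. The comparison set held promoters of all genes and not only of genes kept on these arrays, so whether kept genes in general differ likewise was not tested. Lss and Hsd17b7, which rose, and Nsdhl, which fell, all held a CCAAT box and a GC box. Fads1 and Scd1 were not matched and are named only.

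All levels below are log2 intensities after background correction and quantile normalization, from the brightest kept probe of each gene. Comparisons are log2 fold changes ± SE from a limma fit over all 18 arrays, with p-values adjusted by Benjamini-Hochberg over the 9973 genes and a threshold of 0.05. Between 14587 and 15741 of 45281 probes were detected on an array (32.2% to 34.8%), and replicate arrays correlated at 0.981 to 0.994. All 18 basophil markers were kept, among them Mcpt8, Prss34 and Fcer1a, and their summed intensity was 118000 to 136000 on unstimulated and IL-33 arrays and 152000 to 163000 on IgE arrays. None of the 5 lymphocyte markers with a probe was kept. The summed intensity of the 8 kept dendritic cell markers was 673 to 934 on WT unstimulated arrays and 2620 to 2790 on WT IgE arrays, and 569 to 715 against 1990 to 2050 in ST2KO. The 8 kept mast cell markers, of which 5 passed for IgE in each genotype, summed to 18200 to 21500 unstimulated and 22500 to 24800 after IgE in WT, and to 18100 to 19800 and 22900 to 24600 in ST2KO. The 10 kept neutrophil markers summed to 1240 to 4740 on WT unstimulated and 557 to 1700 on WT IgE arrays. The part of these markers in the results was not tested, and in bulk samples fewer cells of a type and less RNA per cell cannot be told apart.

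The first comparison asked how IgE stimulation altered these lipid genes. In both genotypes a smaller share of the 29 genes passed than of all genes tested, a gap that was not tested. Calls went in both directions, as they did over all genes. In WT cells 10 of the 29 genes passed, 3 higher (Lss, Hsd17b7 and Lpin1) and 7 lower (Nsdhl, Ebp, Srebf2, Insig2, Fads1, Fads2 and Abcg1), which is 34.5% of them where 47% of all genes tested passed (22.7% higher and 24.3% lower). In ST2KO cells 11 passed (37.9% against 49.2% of all genes, 22.8% higher and 26.4% lower), 7 higher (Mvk, Idi1, Lss, Hsd17b7, Insig1, Scd1 and Lpin1) and 4 lower (Nsdhl, Srebf2, Insig2 and Fads1). The median log2 change of the 29 genes was -0.08 in WT and 0.14 in ST2KO, beside -0.02 and -0.02 over all genes. Over the mean of both genotypes, 6 arrays against 6, 15 of 29 passed, 7 higher and 8 lower, where 59.4% of all genes did (27.7% higher and 31.7% lower). IgE and unstimulated arrays of the 2 genotypes are separate samples, and 7 genes passed in both, each in the same direction: 70% of the WT calls and 63.6% of the ST2KO calls, where 84.4% and 80.6% of all called genes did.

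**Figure D1:**
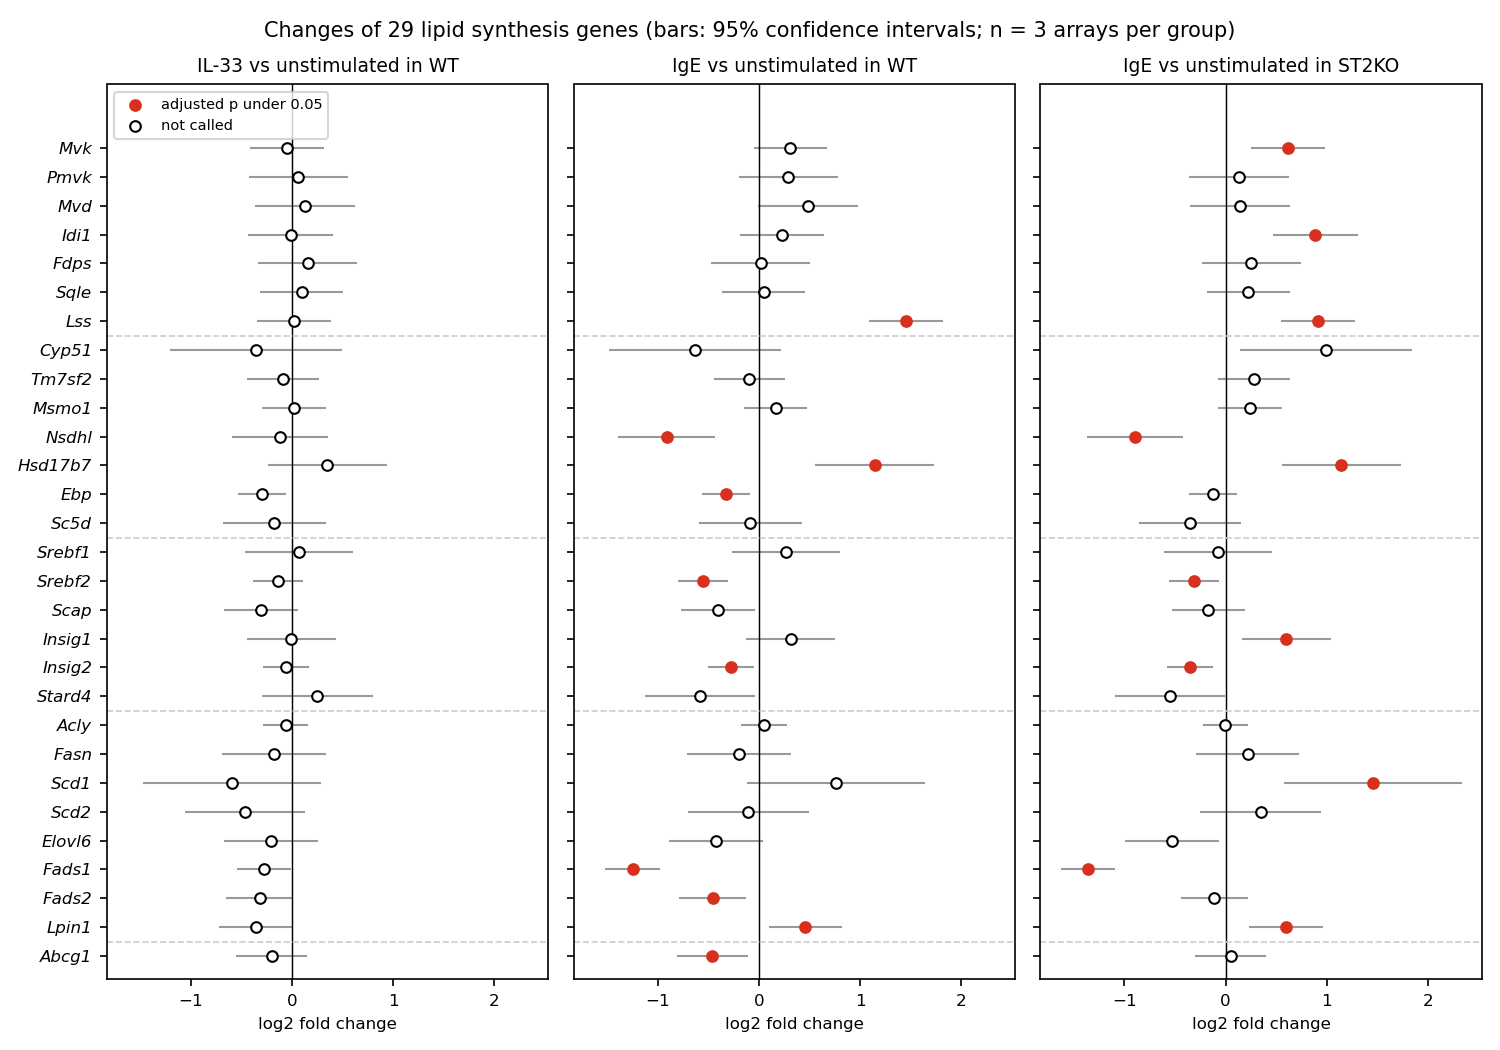
Log2 fold change (x axis) of the 29 kept genes (y axis, ordered by pathway step, dashed lines between groups of steps) for IL-33 in WT, IgE in WT and IgE in ST2KO; bars are 95% confidence intervals from 3 arrays per group, and filled red points have an adjusted p under 0.05. No gene is filled for IL-33, 10 are filled for IgE in WT and 11 for IgE in ST2KO, with Lss and Hsd17b7 to the right and Fads1 and Nsdhl to the left in both.

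Among the early steps, from mevalonate to lanosterol, Lss rose in both genotypes and Mvk and Idi1 rose in ST2KO. By their brightest probes 1 of 7 measured genes passed in WT (14.3%, beside 47% of all genes) and 3 of 7 in ST2KO (42.9%, beside 49.2%), each as higher. The median log2 change over these probes was 0.29 in WT and 0.26 in ST2KO, and a second probe of Fdps fell in both genotypes. Lss, lanosterol synthase, which closes the ring system of the sterol, was the early gene with the largest change in WT. Its level was 6.74, 6.43 and 6.12 on the WT unstimulated arrays and 8.04, 7.69 and 7.91 after IgE. In ST2KO it was 6.67, 6.96 and 6.78 unstimulated and 7.98, 7.70 and 7.47 after IgE. The groups did not overlap in either genotype. Lss rose 2.73-fold in WT (1.45 ± 0.17, limma adjusted p = 2.6e-06) and 1.88-fold in ST2KO (0.91 ± 0.17, adjusted p = 3e-04). IL-33 arrays gave 6.68, 6.21 and 6.47 in WT and 6.47, 6.88 and 6.66 in ST2KO, overlapping the unstimulated arrays in both. A dimmer Lss probe showed no such change (-0.04 ± 0.14 in WT and 0.14 ± 0.14 in ST2KO), so the rise rests on 1 probe.

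Mvk, mevalonate kinase, read 5.26, 4.91 and 4.999 on the ST2KO unstimulated arrays and 5.63, 5.72 and 5.67 after IgE. In WT it read 5.41, 4.92 and 5.02 unstimulated and 5.53, 5.25 and 5.52 after IgE. IL-33 arrays gave 5.29, 4.72 and 5.20 in WT and 4.77, 5.31 and 5.13 in ST2KO. The ST2KO groups were apart and the WT groups overlapped. Mvk rose in ST2KO (0.62 ± 0.17, adjusted p = 0.00655), while the WT value was 0.31 ± 0.17 (adjusted p = 0.15). Idi1, which isomerises the isoprenoid unit made from mevalonate, read 4.75, 4.77 and 5.06 unstimulated and 5.55, 5.69 and 6.001 after IgE in ST2KO. In WT it read 5.15, 4.82 and 4.90 unstimulated and 5.19, 4.69 and 5.67 after IgE. After IL-33 it was 4.78, 4.95 and 5.10 in WT and 5.06, 4.69 and 5.02 in ST2KO. Of the stimulated groups only that of ST2KO with IgE stood clear of its control, with 3 arrays above background there and 1 of 3 in the control. Idi1 rose 1.85-fold in ST2KO (0.89 ± 0.20, adjusted p = 0.00124), and in WT the value was 0.23 ± 0.20 (adjusted p = 0.371). The difference between the genotypes in the IgE response was 0.30 ± 0.24 for Mvk and 0.66 ± 0.28 for Idi1, each with adjusted p = 0.982, and neither difference passed.

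Pmvk and Mvd, the kinase and the decarboxylase that follow Mvk, did not pass, with 0.29 ± 0.23 and 0.49 ± 0.23 in WT and 0.13 ± 0.23 and 0.14 ± 0.23 in ST2KO. Fdps, which builds farnesyl diphosphate, and Sqle, squalene epoxidase, also did not pass (0.02 ± 0.23 and 0.05 ± 0.20 in WT, 0.26 ± 0.23 and 0.22 ± 0.20 in ST2KO). The 95% intervals of Sqle, -0.36 to 0.46 in WT and -0.19 to 0.64 in ST2KO, left no room for a change of 2-fold in either direction. A second Fdps probe went the other way, with -0.62 ± 0.18 in WT (adjusted p over probes = 0.0109) and -0.84 ± 0.18 in ST2KO (adjusted p over probes = 0.00109). The probes of Fdps therefore disagree, and no direction is given for it.

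Of the later steps, from lanosterol to cholesterol, 1 of 7 genes rose and 2 fell in WT (42.9% called, beside 47% of all genes), and 1 rose and 1 fell in ST2KO (28.6%, beside 49.2%), with medians of -0.09 and 0.24. Among them are enzymes that act one after the other: removal of a methyl group from the sterol ring needs NSDHL, a dehydrogenase that also decarboxylates, and then HSD17B7, a ketone reductase. Hsd17b7 read 6.88, 6.04 and 6.23 unstimulated and 8.13, 6.79 and 7.66 after IgE in WT. The ST2KO levels were 6.97, 6.97 and 7.04 unstimulated and 8.25, 8.07 and 8.09 after IgE. After IL-33 the levels were 6.94, 6.20 and 7.06 in WT and 6.52, 6.56 and 6.80 in ST2KO. The WT groups overlapped at 1 array, number 2 of the IgE group, which read below the highest control, and the ST2KO groups were far apart. Hsd17b7 rose 2.21-fold in WT (1.14 ± 0.28, adjusted p = 0.00258) and 2.21-fold in ST2KO (1.14 ± 0.28, adjusted p = 0.00245).

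Nsdhl fell in both genotypes. It read 6.60, 6.81 and 6.25 unstimulated and 5.82, 6.05 and 5.05 after IgE in WT. It read 6.64, 6.47 and 6.39 unstimulated and 5.91, 5.49 and 5.41 after IgE in ST2KO. After IL-33 it was 6.58, 6.44 and 6.29 in WT and 5.94, 6.58 and 6.38 in ST2KO. Every IgE array was below every unstimulated array of its genotype. The change was -0.91 ± 0.23 in WT, a 1.88-fold fall (adjusted p = 0.00298), and -0.89 ± 0.23 in ST2KO (adjusted p = 0.00324). Of 3 other Nsdhl probes, those detected on 18 and 17 arrays also fell (-0.78 ± 0.18 and -1.18 ± 0.23 in WT), and the dimmest, detected on 10 arrays, was at 0.02 ± 0.18.

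Ebp, the isomerase that shifts a double bond in the sterol ring, read 9.76, 9.73 and 9.87 unstimulated and 9.40, 9.46 and 9.54 after IgE in WT. ST2KO cells gave 9.62, 9.73 and 9.79 unstimulated and 9.53, 9.75 and 9.51 after IgE. The IL-33 arrays read 9.50, 9.57 and 9.41 in WT and 9.66, 10.07 and 9.80 in ST2KO. All WT stimulated arrays lay below the WT controls, while ST2KO groups overlapped. Ebp fell by 0.32 on the log2 scale in WT (SE 0.11, adjusted p = 0.0266) and was at -0.12 ± 0.11 in ST2KO (adjusted p = 0.406). The WT call ended without WT unstimulated array 3 (-0.28, adjusted p = 0.0893), without WT IgE array 1 (-0.28, adjusted p = 0.0838) or without WT IgE array 2 (-0.32, adjusted p = 0.0551).

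Cyp51, lanosterol demethylase, had the widest spread of the sterol enzymes on the WT unstimulated arrays. It read 7.35, 9.25 and 8.06 on WT unstimulated, 8.22, 7.34 and 7.20 on WT IgE and 7.59, 8.77 and 7.24 on WT IL-33 arrays, with number 2 the highest in the first and last of these groups. In ST2KO it read 7.18, 7.34 and 7.04 unstimulated and 8.39, 8.11 and 8.04 after IgE, without overlap. The values were -0.63 ± 0.40 in WT (adjusted p = 0.217) and 0.99 ± 0.40 in ST2KO (adjusted p = 0.0501). In a fit with replicate numbers as blocks within genotype, the ST2KO value passed (adjusted p = 0.0287). Its IgE responses differed by 1.62 ± 0.57 between the genotypes, which did not pass (adjusted p = 0.982). Msmo1, the methylsterol oxidase, was at 0.17 ± 0.15 and 0.24 ± 0.15 and Sc5d, a desaturase, at -0.08 ± 0.24 and -0.35 ± 0.24, neither passing. Tm7sf2, a sterol reductase, was not well above background on any WT IgE array and did not pass.

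Among the regulators, Srebf2, the gene of the main sterol-responsive factor, fell in both genotypes. It read 9.74, 9.72 and 9.48 unstimulated and 9.10, 9.02 and 9.16 after IgE in WT. It read 9.75, 9.48 and 9.66 unstimulated and 9.46, 9.25 and 9.23 after IgE in ST2KO. After IL-33 the levels were 9.49, 9.64 and 9.39 in WT and 9.50, 9.68 and 9.81 in ST2KO. The IgE arrays lay below the controls with no overlap, though by a narrow margin in ST2KO. The change was -0.55 ± 0.12 in WT (adjusted p = 0.00083) and -0.32 ± 0.12 in ST2KO (adjusted p = 0.0338). A second probe fell further, by 1.04 in WT and by 0.83 in ST2KO. The ST2KO call on the brightest probe ended without ST2KO unstimulated array 1 (-0.26, adjusted p = 0.127) or 3 (-0.30, adjusted p = 0.0877) and without ST2KO IgE array 2 (-0.28, adjusted p = 0.101) or 3 (-0.27, adjusted p = 0.11). Srebf1, the factor tied to fatty acid synthesis, was at 0.27 ± 0.25 and -0.08 ± 0.25 and did not pass.

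By their brightest probes the INSIG genes were called in opposite directions in ST2KO. Insig1 read 6.34, 6.02 and 6.29 unstimulated and 7.06, 6.58 and 6.80 after IgE in ST2KO. It read 6.05, 5.81 and 5.85 unstimulated and 6.32, 5.93 and 6.41 after IgE in WT. After IL-33 it was 5.92, 5.61 and 6.16 in WT and 5.62, 5.72 and 6.49 in ST2KO. The ST2KO IgE arrays were clear of their controls and the WT arrays overlapped. Insig1 rose in ST2KO (0.60 ± 0.21, adjusted p = 0.0246) and was at 0.32 ± 0.21 in WT (adjusted p = 0.234). Dimmer probes rose in WT as well, with 0.60 ± 0.20 (adjusted p over probes = 0.0192) and 0.96 ± 0.18 (adjusted p over probes = 0.000355). The ST2KO call on the brightest probe ended without ST2KO unstimulated array 2 (0.50, adjusted p = 0.0971), without ST2KO IgE array 1 (0.47, adjusted p = 0.109) or without ST2KO IgE array 3 (0.60, adjusted p = 0.0522).

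Insig2 read 8.04, 8.38 and 8.32 unstimulated and 8.04, 7.89 and 7.98 after IgE in WT. The ST2KO levels were 8.24, 8.25 and 8.20 unstimulated and 7.86, 7.94 and 7.85 after IgE. With IL-33 the levels were 8.13, 8.30 and 8.14 in WT and 8.15, 8.40 and 8.15 in ST2KO. The groups overlapped in WT at unstimulated array 1 and were apart in ST2KO. Insig2 fell by 0.28 in WT (SE 0.11, adjusted p = 0.0428) and by 0.35 in ST2KO (SE 0.11, adjusted p = 0.0121), both small changes, and a second probe detected on all arrays was at -0.05 ± 0.14 and -0.04 ± 0.14. With the mean of the probes of a gene in the limma fit, Insig2 passed in neither genotype. It was at -0.163 in WT (adjusted p = 0.192) and -0.196 in ST2KO (adjusted p = 0.112). The WT call ended without WT unstimulated array 2 (-0.21, adjusted p = 0.162) or 3 (-0.24, adjusted p = 0.128) and without WT IgE array 2 (-0.23, adjusted p = 0.125) or 3 (-0.28, adjusted p = 0.0795). Scap, the escort of SREBP, was at -0.40 ± 0.17 in WT (adjusted p = 0.0647) and -0.17 ± 0.17 in ST2KO, and the WT value passed with the replicate block within genotype (adjusted p = 0.0423).

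Stard4, a carrier that moves cholesterol between membranes, read 7.27, 5.91 and 6.82 unstimulated and 6.45, 5.73 and 6.08 after IgE in WT. ST2KO cells gave 7.27, 7.04 and 7.21 unstimulated and 6.53, 6.46 and 6.87 after IgE. After IL-33 it read 7.02, 6.73 and 7.01 in WT and 6.81, 6.95 and 7.32 in ST2KO. Number 2 was the lowest array of each WT group. The values were -0.58 ± 0.26 in WT (adjusted p = 0.0759) and -0.55 ± 0.26 in ST2KO (adjusted p = 0.0888), neither passing. With the replicate block within genotype both passed as lower, with adjusted p = 0.00913 and 0.0118. Over the mean of both genotypes it fell by 0.57 (SE 0.18, adjusted p = 0.013).

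In fatty acid synthesis Fads1 fell in both genotypes after IgE and Scd1 rose in ST2KO. Fads1, which desaturates polyunsaturated fatty acids on the way to arachidonic acid, had the largest fall among all 29 genes in both genotypes. It read 11.81, 11.61 and 11.45 unstimulated and 10.23, 10.56 and 10.35 after IgE in WT. It read 11.73, 11.51 and 11.50 unstimulated and 10.11, 10.34 and 10.20 after IgE in ST2KO. After IL-33 it was 11.45, 11.12 and 11.48 in WT and 11.46, 11.50 and 11.58 in ST2KO. Every IgE array lay below every other array, with no overlap. Fads1 fell 2.37-fold in WT (-1.24 ± 0.13, adjusted p = 4.7e-07) and 2.57-fold in ST2KO (-1.36 ± 0.13, adjusted p = 1.5e-07). A second probe, detected on 3 arrays, was at -0.04 ± 0.14 and -0.06 ± 0.14.

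Fads2, the desaturase of the step before, read 5.73, 5.65 and 5.64 unstimulated and 5.25, 5.11 and 5.29 after IgE in WT. In ST2KO it read 5.53, 4.97 and 5.22 unstimulated and 4.92, 5.14 and 5.33 after IgE. IL-33 arrays gave 5.68, 5.06 and 5.31 in WT and 5.33, 5.30 and 5.50 in ST2KO. It fell by 0.46 in WT (SE 0.16, adjusted p = 0.025), where the groups did not overlap, and was at -0.11 ± 0.16 in ST2KO (adjusted p = 0.596), where they did. The WT call ended without WT unstimulated array 1 (-0.43, adjusted p = 0.0673) or WT IgE array 2 (-0.41, adjusted p = 0.0774), and a second probe was at -0.26 ± 0.22.

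Scd1, which makes monounsaturated fatty acids, read 6.72, 7.47 and 7.01 unstimulated and 8.25, 8.76 and 8.55 after IgE in ST2KO. In WT it read 6.51, 8.18 and 7.92 unstimulated and 7.95, 8.28 and 8.65 after IgE. The IL-33 arrays read 6.34, 7.87 and 6.60 in WT and 7.90, 6.96 and 6.92 in ST2KO. The ST2KO groups were apart, and the WT controls spanned the range from below to within the IgE group, with array 1 the lowest. Scd1 rose 2.74-fold in ST2KO (1.46 ± 0.42, adjusted p = 0.00771), and the WT value was 0.76 ± 0.42 (adjusted p = 0.148). Over both genotypes together it rose (1.11 ± 0.29, adjusted p = 0.00353). Scd2, its close relative, was at -0.10 ± 0.28 and 0.35 ± 0.28 and did not pass.

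Lpin1, a phosphatidate phosphatase of triglyceride synthesis, read 7.71, 7.30 and 7.12 unstimulated and 7.94, 7.94 and 7.63 after IgE in WT. The ST2KO levels were 7.56, 7.26 and 7.47 unstimulated and 8.18, 7.99 and 7.90 after IgE. With IL-33 the levels were 7.26, 6.81 and 7.004 in WT and 7.14, 7.68 and 7.56 in ST2KO. It rose in WT (0.46 ± 0.17, adjusted p = 0.036), where 1 control array overlapped, and in ST2KO (0.59 ± 0.17, adjusted p = 0.00814), where none did. A second probe gave 0.51 ± 0.19 and 0.57 ± 0.19, both passing over probes. The WT call ended without WT unstimulated array 2 (0.42, adjusted p = 0.0956) or 3 (0.33, adjusted p = 0.162) and without WT IgE array 1 (0.41, adjusted p = 0.105) or 2 (0.41, adjusted p = 0.102).

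For the fatty acid chain itself, Acly, Fasn and Elovl6 gave no IgE call in either genotype in the main fit over all 18 arrays. Acaca was not tested. Among the other fatty acid genes counted below, some of chain elongation did pass in both genotypes. Elovl1, Hsd17b12, Hacd3 and Tecr were higher after IgE and Elovl5 was lower. Acly, which supplies cytosolic acetyl-CoA, stayed within narrow limits, with 95% intervals of -0.17 to 0.28 in WT and -0.23 to 0.22 in ST2KO. Fasn, fatty acid synthase, was dim, detected on 13 of 18 arrays, at -0.20 ± 0.24 and 0.22 ± 0.24. Elovl6, an elongase, was at -0.42 ± 0.22 in WT (adjusted p = 0.128) and -0.53 ± 0.22 in ST2KO (adjusted p = 0.0539). It passed as lower in ST2KO with the replicate block within genotype (adjusted p = 0.0481) and over both genotypes together (-0.48 ± 0.16, adjusted p = 0.0136).

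Of the export genes Abcg1, a sterol exporter, was measured. It read 6.10, 6.30 and 5.75 unstimulated and 5.27, 5.87 and 5.64 after IgE in WT. ST2KO cells gave 5.52, 5.66 and 5.84 unstimulated and 5.59, 5.89 and 5.69 after IgE. After IL-33 it read 5.78, 6.09 and 5.69 in WT and 5.95, 5.74 and 5.80 in ST2KO. It fell by 0.46 in WT (SE 0.17, adjusted p = 0.0309) with overlapping groups, and was at 0.05 ± 0.17 in ST2KO (adjusted p = 0.83). The WT call ended without WT unstimulated array 1 (-0.44, adjusted p = 0.0753) or 2 (-0.33, adjusted p = 0.145) and without WT IgE array 1 (-0.30, adjusted p = 0.172) or 3 (-0.48, adjusted p = 0.0531). Over both genotypes together it did not pass (-0.21 ± 0.12, adjusted p = 0.147).

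**Figure D2:**
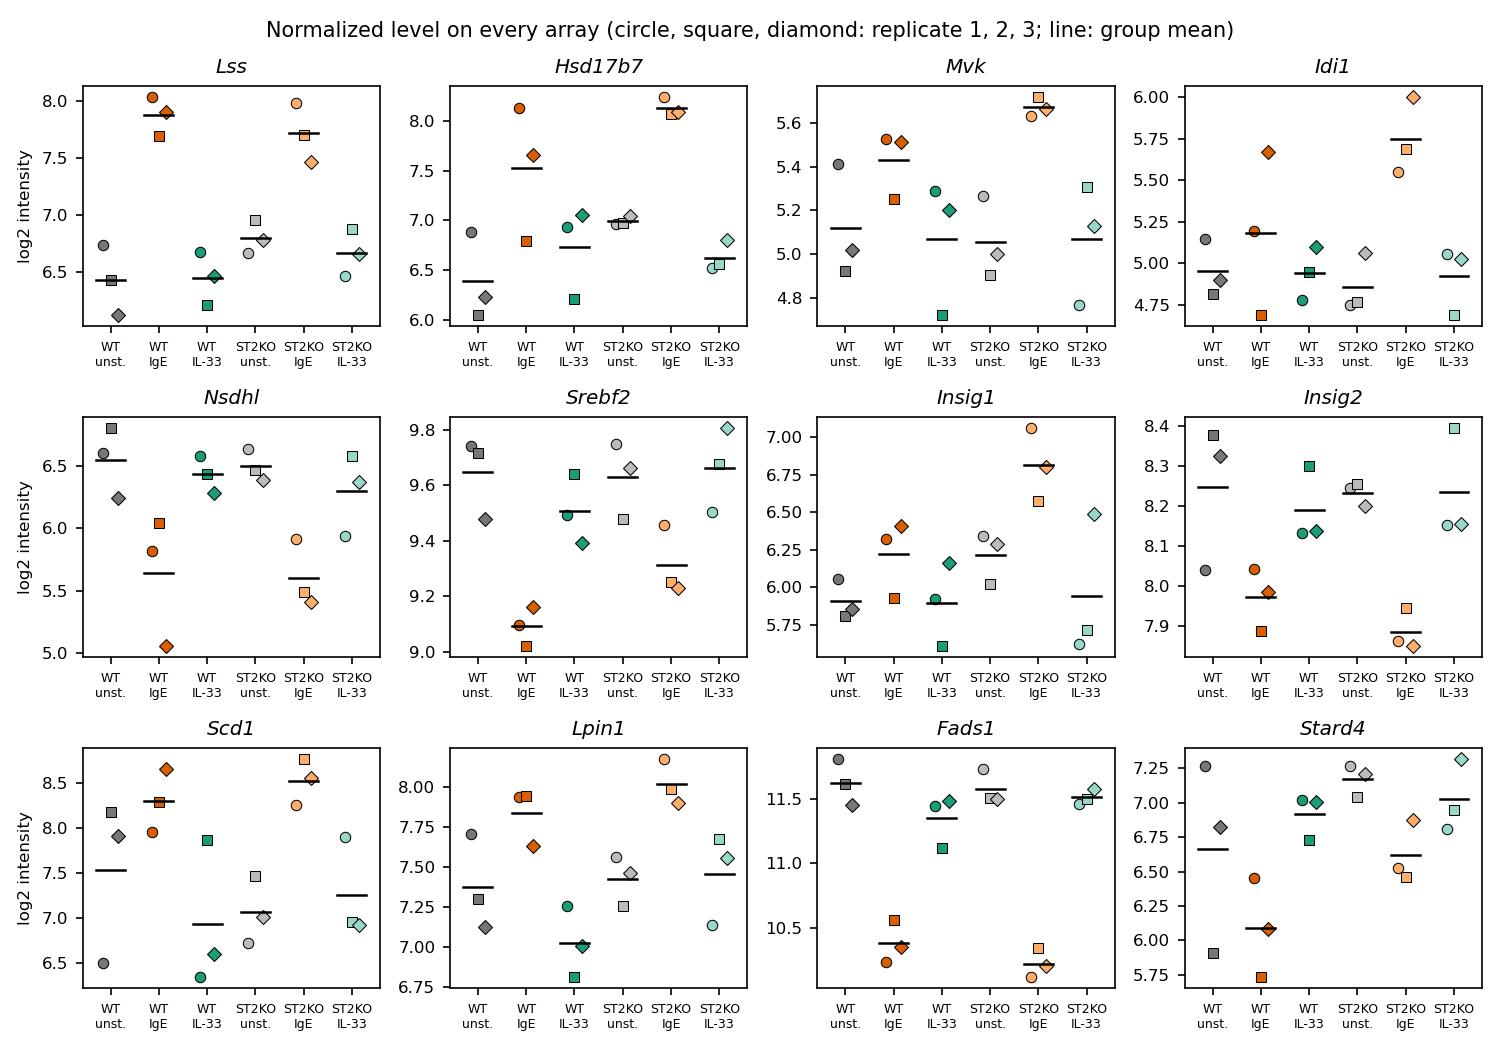
Log2 intensity (y axis, own range per gene) of 12 genes on every array of the 6 groups (x axis); circles, squares and diamonds are replicates 1, 2 and 3, and lines are group means of 3 arrays. The IgE groups of Lss and Fads1 are clear of all other groups in opposite directions, near 7.88 and 7.72 for Lss and near 10.4 and 10.2 for Fads1, while IL-33 groups lie with the unstimulated ones.

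After IL-33 no gene of the programme passed the threshold. In WT cells 0 of the 29 genes passed, where 3.78% of all genes did (377 genes), and 2 of 29 (Ebp and Fads1) had an unadjusted p under 0.05, beside 1364 of 9973. The median log2 change of the 29 was -0.09, beside -0.03 over all genes. For 26 of the 29 the 95% interval lay within 2-fold in either direction, a width that held for 94.5% of all genes; the exceptions were Cyp51 (-1.20 to 0.50), Scd1 (-1.48 to 0.28) and Scd2 (-1.06 to 0.13). Lss was at 0.02 ± 0.17 and Fdps at 0.15 ± 0.23. The 8 fatty acid genes were all below 0, from -0.60 for Scd1 to -0.06 for Acly, and none passed. In ST2KO cells, which lack the receptor chain, 0 of 29 passed, where 0% of all genes did (limma, 0 of 9973), with 0 of 29 and 274 of 9973 at an unadjusted p under 0.05. The difference between the genotypes in the IL-33 response passed for 0 of 29 (1.76% of all genes, with 2 of 29 and 1081 of 9973 at an unadjusted p under 0.05).

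Set directly against IgE in WT, a comparison that shares its arrays with the ones above, IL-33 left 8 of 29 genes at another level (27.6%, beside 43% of all genes, 21.8% higher and 21.2% lower). Nsdhl (0.79 ± 0.23), Srebf2 (0.42 ± 0.12), Stard4 (0.83 ± 0.26) and Fads1 (0.97 ± 0.13) were higher after IL-33. Lss (-1.43 ± 0.17), Hsd17b7 (-0.80 ± 0.28), Scd1 (-1.36 ± 0.42) and Lpin1 (-0.81 ± 0.17) were lower. Adjusted p ran from 4.3e-06 for Lss and 1.1e-05 for Fads1 to 0.0286 for Hsd17b7, the gene whose groups overlapped. Hsd17b7 did not pass without WT IgE array 1 (-0.49, adjusted p = 0.169) or 3 (-0.73, adjusted p = 0.0861) or WT IL-33 array 2 (-0.53, adjusted p = 0.154), and Scd1 did not without WT IgE array 3 (-1.18, adjusted p = 0.0604) or WT IL-33 array 1 (-1.06, adjusted p = 0.0768) or 3 (-1.19, adjusted p = 0.0557). Nsdhl did not pass without WT IgE array 3 (0.50, adjusted p = 0.0626), nor Stard4 without WT IgE array 2 (0.65, adjusted p = 0.0743). Without the 3 arrays labelled WT number 2, Srebf2 did not pass (0.31, adjusted p = 0.0975).

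No difference between the genotypes passed in this programme. Unstimulated, 0 of 29 passed (0% of all genes), with 6 of 29 and 832 of 9973 at an unadjusted p under 0.05. The largest value was Cyp51 at -1.03 ± 0.40 (adjusted p = 0.553), lower in ST2KO. After IgE 0 of 29 passed (0.0201% of all genes), with 6 of 29 and 800 of 9973 at an unadjusted p under 0.05. After IL-33 0 of 29 passed (6.07% of all genes), with 2 of 29 and 1867 of 9973 at an unadjusted p under 0.05, and Ebp came nearest (0.35 ± 0.11, adjusted p = 0.0773). Ebp passed there without ST2KO IL-33 array 1, which left 1 of 29. The difference between genotypes in the IgE response passed for 0 of 29 (0% of all genes), with 4 of 29 and 434 of 9973 at an unadjusted p under 0.05.

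The arrays labelled WT number 2 were low in the median of the sterol enzymes, and those labelled WT number 1 were high. On the number 2 arrays the 14 sterol enzymes had median deviations from their group mean of -0.13 (unstimulated), -0.22 (IgE) and -0.21 (IL-33), beside -0.01, -0.01 and -0.03 over all genes. The same medians were 0.13, 0.23 and 0.11 on the number 1 arrays, and -0.08, 0.05 and 0.12 on the number 3 arrays. Number 2 was the lowest of its group in all 3 WT groups for 9 of the 29 genes (31%, beside 11.4% of all genes): Mvk, Mvd, Fdps, Sqle, Msmo1, Hsd17b7, Insig1, Stard4 and Acly. Tm7sf2 and Abcg1 went the other way, with number 2 the highest in all 3 WT groups (6.9%, beside 9.33% of all genes). Cyp51 and Scd1 were highest on number 2 in the unstimulated and IL-33 groups. In the IL-33 group Ebp, Srebf1, Srebf2, Scap, Insig2 and Scd2 were highest there too. Number 1 was the highest in all 3 WT groups for Mvk, Sqle, Lss and Stard4 (13.8%, beside 5.08% of all genes). ST2KO IL-33 array 1 was the lowest of its group for 19 of 29 genes, a count for which the share over all genes was not computed. Its median deviation was -0.19 over the sterol enzymes, beside -0.01 over all genes. The summed neutrophil markers were 4740, 1100 and 5380 on the WT number 2 arrays (unstimulated, IgE and IL-33), against 1240 and 3150, 557 and 1700, and 1190 and 505 on the other arrays of those groups, and 3100 on ST2KO IL-33 array 1 against 329 and 423. On the IgE array they were thus not the highest of the group. Of 7 eosinophil markers with a probe, Epx, Siglecf, Ccr3 and Prg3 were not kept. The 3 kept ones, Prg2, Ear6 and Il5ra, had their highest sum on number 2 in all 3 WT groups (730 against 142 and 322, 742 against 120 and 339, and 1100 against 197 and 297). The 11 kept macrophage and monocyte markers were highest there too (10600 against 7010 and 6920, 9130 against 6970 and 8090, and 9220 against 8460 and 8420). The part of these cell types in the deviation was not tested. Ch25h, which makes an oxidised sterol, read 5.23, 8.26 and 5.60 on WT unstimulated and 6.35, 9.65 and 5.64 on WT IL-33 arrays, with number 2 high in both. On the WT IgE arrays Ch25h read 9.59, 9.87 and 9.68. Its part in the deviation was not tested. Without the 3 WT number 2 arrays 8 of 29 genes passed for IgE in WT (3 higher, 5 lower, now with Stard4 and Scd1 and without Ebp, Insig2, Fads2 and Lpin1), beside 44.6% of all genes.

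**Figure D3:**
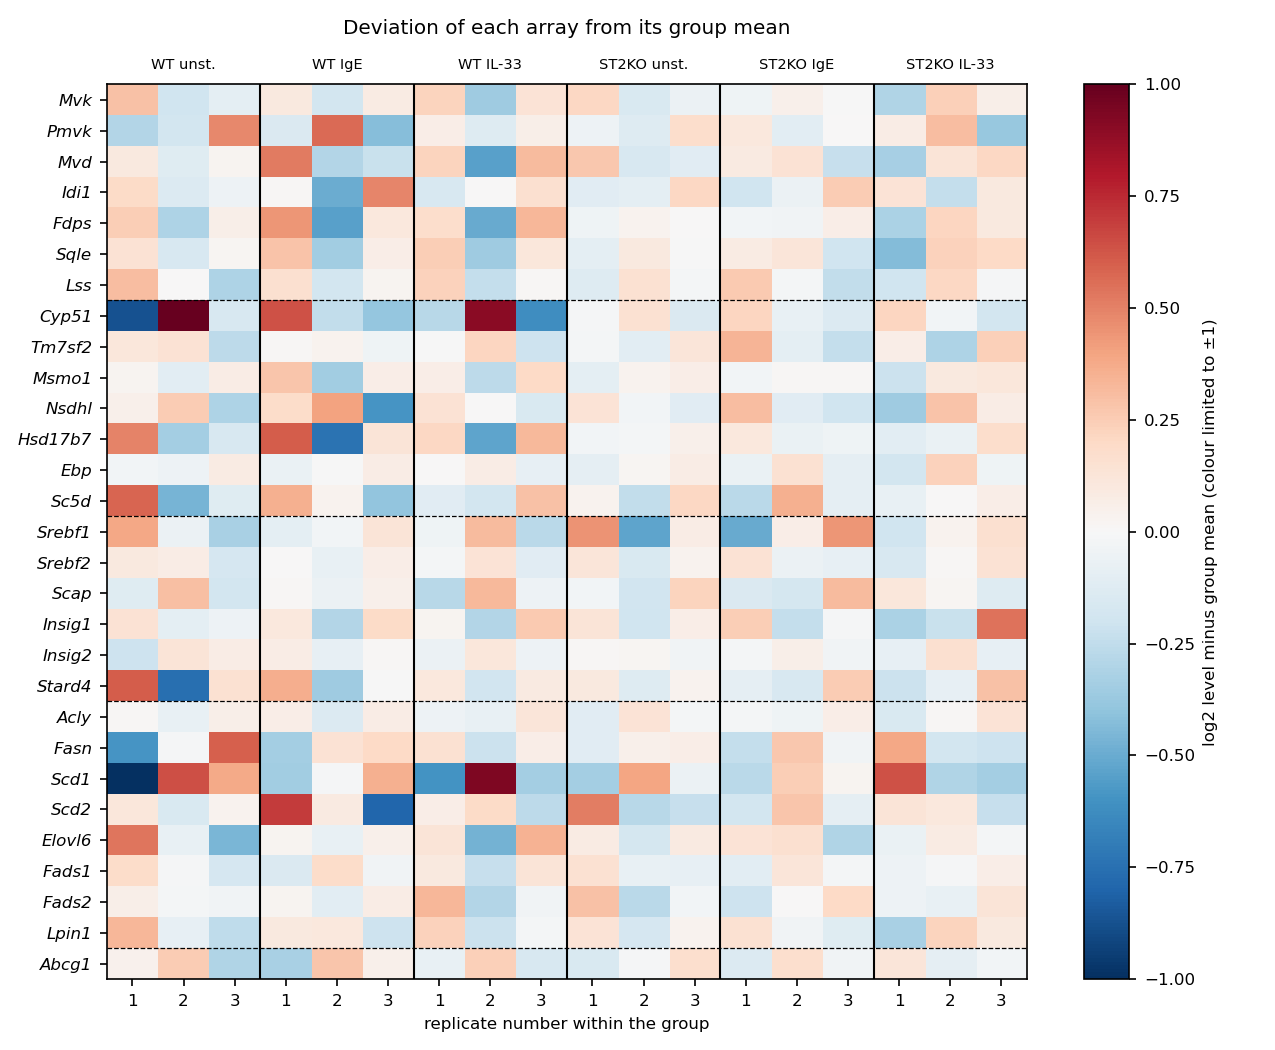
Deviation of each array's log2 level from its group mean (colour, limited to ±1) for the 29 kept genes (rows, dashed lines between pathway groups) on the 18 arrays (columns, 3 replicates per group). The column of replicate 2 is blue for most sterol enzymes in all 3 WT groups, with median deviations of -0.13, -0.22 and -0.21, and Cyp51 is red there in the unstimulated and IL-33 groups.

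Genes of lipid metabolism outside the 37 held larger changes, among them Idi2, Ch25h and Acss2. The lists of these genes were chosen with earlier results of these data known. Their shares beside those of all genes describe the lists and are no test. Among 16 other measured genes of sterol synthesis, uptake and handling, 6 passed for IgE in WT (3 higher, 3 lower) and 7 in ST2KO (3 higher, 4 lower), which is 37.5% and 43.8% beside 47% and 49.2% of all genes. Idi2, a relative of Idi1, read 4.57, 5.003 and 4.61 unstimulated and 8.47, 7.50 and 8.36 after IgE in WT and rose by 3.38 ± 0.25 on the log2 scale (adjusted p = 1e-08), a fitted size, since 1 of 3 WT control arrays detected it. In ST2KO, where it was not well above background on any control array, it was at least 9.14-fold higher, a bound set from the lowest signal well above background on each control array or the probe's own signal where higher. Ch25h rose in WT (3.35 ± 0.79, adjusted p = 0.00192) and in ST2KO (4.30 ± 0.79, adjusted p = 0.00021), where it read 5.20, 5.18 and 4.63 unstimulated and 9.55, 9.19 and 9.15 after IgE. Nceh1, a cholesteryl ester hydrolase, fell 3.60-fold in WT (-1.85 ± 0.13) and 3.45-fold in ST2KO (-1.79 ± 0.13). Lbr, a sterol reductase of the nuclear membrane, fell in WT (-0.89 ± 0.15) and ST2KO (-0.90 ± 0.15), and so did Npc1, the lysosomal cholesterol exporter (-0.85 ± 0.12 and -0.96 ± 0.12).

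Of 22 other measured genes of fatty acid and triglyceride synthesis, 14 passed for IgE in each genotype, 9 higher and 5 lower (63.6%, beside 47% and 49.2% of all genes). This list too was chosen with earlier results known, so its share is no test. Acss2, which makes acetyl-CoA from acetate, read 10.05, 10.30 and 9.37 unstimulated and 7.04, 7.71 and 7.04 after IgE in WT, a 6.24-fold fall (-2.64 ± 0.22, adjusted p = 5.1e-08), and fell 4.91-fold in ST2KO. Dgat1, which adds the last acyl chain of a triglyceride, fell 4.50-fold in WT (-2.17 ± 0.29) and 4.92-fold in ST2KO (-2.30 ± 0.29). Lpin2, a relative of Lpin1, passed as lower in both genotypes and was not well above background on any IgE array. Its mean was 5.92 unstimulated and 4.56 after IgE in WT, and it was at least 2.37-fold lower in ST2KO. Acsl4, which activates arachidonic acid, rose in WT (1.49 ± 0.18) and ST2KO (1.47 ± 0.18), and Hacd3, a dehydratase of chain elongation, rose in WT (1.50 ± 0.17) and ST2KO (1.28 ± 0.17).

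IL-33 in WT moved few of these genes. Dgat2, the other enzyme for the last step of triglyceride synthesis, read 4.52, 5.64 and 4.74 unstimulated and 9.27, 9.17 and 8.89 after IL-33, and Hacd3 read 9.76, 9.35 and 9.51 unstimulated and 11.97, 11.32 and 12.10 after IL-33. Hacd3 rose 4.77-fold (2.25 ± 0.17, adjusted p = 1.1e-07), and Dgat2 rose by 4.14 ± 0.28 on the log2 scale (adjusted p = 3.1e-08), a fitted size, since 1 of 3 WT control arrays detected it. Those were 2 of the 22 genes (9.09%, beside 3.78% of all genes), and neither passed in ST2KO, where 0% of all genes did. Cyb5r3, a reductase that feeds electrons to sterol and fatty acid enzymes, was the 1 of 16 sterol genes (6.25%) that passed and rose by 0.60 ± 0.14 (adjusted p = 0.0209) and did not pass without WT unstimulated array 2 (0.42, adjusted p = 0.103) or WT IL-33 array 1 (0.57, adjusted p = 0.0905) or 3 (0.52, adjusted p = 0.119). In ST2KO no gene of these lists passed for IL-33.

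Of 6 other measured LXR targets and partners, 4 fell after IgE in each genotype and none rose (66.7% lower, beside 24.3% of all genes in WT and 26.4% in ST2KO). The 4 include the partners Rxra and Rxrb. The list was chosen with earlier results of these data known, so its share is no test. The LXR targets Lpcat3 and Apoe did not pass in either genotype. Mean Lpcat3 was 9.90 unstimulated and 10.01 after IgE in WT, and 9.63 and 9.80 in ST2KO. Mean Apoe was 5.50 and 5.53 in WT, and 5.77 and 5.63 in ST2KO. Smpdl3a, a phosphodiesterase and LXR target, was at -1.53 ± 0.19 in WT and -1.18 ± 0.19 in ST2KO. Abca7, a lipid transporter, was at -0.94 ± 0.15 and -1.22 ± 0.15. Rxrb, a partner receptor of LXR, was at -0.84 ± 0.12 and -0.83 ± 0.12. Rxra, the other partner, was not well above background after IgE and was at least 1.26-fold lower in WT and 1.16-fold lower in ST2KO. Rxra did not pass in WT without WT unstimulated array 3 (-0.55, adjusted p = 0.0515). In ST2KO it did not pass without ST2KO unstimulated array 3 (-0.47, adjusted p = 0.094) or ST2KO IgE array 1 (-0.59, adjusted p = 0.0501).

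Of 9 measured genes of fatty acid oxidation and PPAR signalling 5 passed in WT (2 higher, 3 lower) and 6 in ST2KO (2 higher, 4 lower), which is 55.6% and 66.7% beside 47% and 49.2% of all genes. Ppard, a lipid-sensing receptor, rose in WT (0.89 ± 0.10) and ST2KO (0.52 ± 0.10). Hadhb and Hadha, the subunits of the mitochondrial trifunctional protein, fell in both, with -0.56 ± 0.12 and -0.50 ± 0.18 in WT and -0.69 ± 0.12 and -0.63 ± 0.18 in ST2KO. Fabp5, a fatty acid carrier, rose in WT (0.85 ± 0.25) but not without WT IgE array 1 (0.70, adjusted p = 0.0551), and Acadm, a dehydrogenase of medium chains, fell in ST2KO (-0.49 ± 0.15) but not without ST2KO IgE array 1 (-0.43, adjusted p = 0.0518). Hadha did not pass in WT without WT unstimulated array 3 (-0.41, adjusted p = 0.103) or WT IgE array 1 (-0.32, adjusted p = 0.159) or 3 (-0.43, adjusted p = 0.0979).

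**Figure D4:**
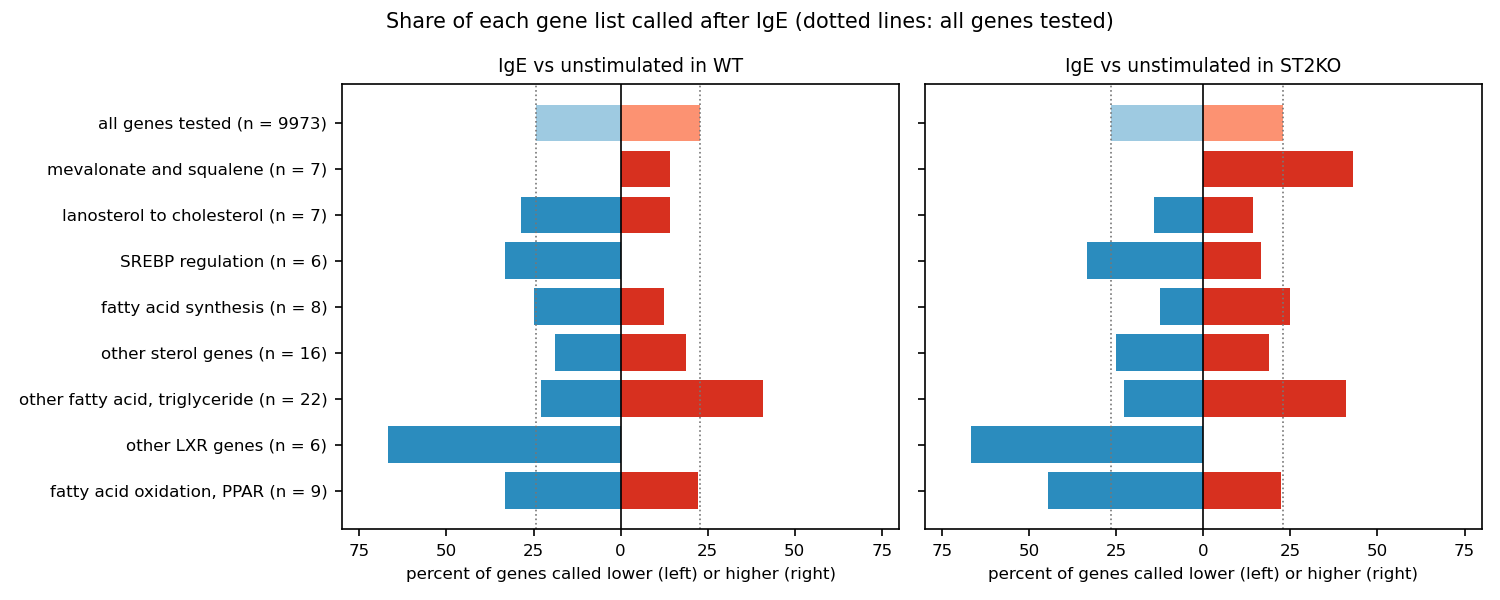
Percent of measured genes called lower (blue, left) or higher (red, right) after IgE in WT and ST2KO for 4 groups of the 37 genes and 4 lists of other lipid genes, with all 9973 genes tested at the top and as dotted lines. All genes stand at 22.7% higher and 24.3% lower in WT and 22.8% and 26.4% in ST2KO; the LXR list has no higher call and the early sterol steps, by their brightest probes, no lower call in either genotype.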

How the data were processed

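Total RNA of 18 samples was hybridised to Illumina bead arrays. The authors deposited a non-normalized table of probe intensity with a detection p-value per probe (no normalization stated), and processed log2 values of the same arrays, for which no background correction is given in the sources used here. Per the labels, groups are genotype by stimulation, 3 arrays each. The intensities were corrected and quantile normalized with neqc of limma 3.58.1 (R 4.3.3, offset 16, background inferred from the detection p-values). Probes with 1 gene symbol and a detection p under 0.05 on 3 or more arrays were kept (15239 of 45281), and the brightest kept probe stood for its gene. A fit of 6 group means over 18 arrays with empirical Bayes variances gave 10 comparisons. It was tested on simulated data. Precision is set by 3 arrays a group: the median 95% half-width of a comparison of 2 groups was 0.32 on the log2 scale. Genes and lists were chosen with earlier results of these data known. Every kept member that passed in any comparison is given on every array, and at most 4 passing genes per other list and comparison are named, by size. A gene named for 1 comparison can also be given for another. Gene symbols come from the platform annotation and can be old (18 probes had several symbols and 10378 none). Replicate numbers were checked as pairs: same-numbered arrays deviated together within WT (correlations 0.14 to 0.59) and between unstimulated and IgE arrays of ST2KO (0.12 to 0.21). Correlations of ST2KO IL-33 arrays with the other ST2KO groups ran from -0.029 to 0.26. Across genotypes they were uneven, from -0.34 to 0.39. Alternatives covered the background correction, the authors' processed values, the filter, the probe rule, the samples fitted, array weights, the variance model, the replicate block and leaving out arrays.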

Additional observations from a re-analysis of the deposited data

Results flagged for a closer look

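For 3 genes of the neighbouring lipid lists, none of them among the 37, the response to IL-33 differed between the genotypes by the test of the difference itself (limma, adjusted over 9973 genes). The ST2KO response minus the WT response was -4.02 ± 0.39 for Dgat2 (adjusted p = 8.4e-06), -2.43 ± 0.24 for Hacd3 (adjusted p = 8.4e-06) and -1.48 ± 0.36 for Fabp5 (adjusted p = 0.0427). Dgat2 read 4.38, 4.57 and 4.38 unstimulated and 4.56, 4.73 and 4.41 after IL-33 in ST2KO, not well above background on any array of either group, so its difference is a fitted value and not a measured size, and was at least 19.6-fold lower than in WT after IL-33. Hacd3 read 9.88, 9.78 and 9.85 unstimulated and 9.75, 9.48 and 9.75 after IL-33 in ST2KO. Fabp5 read 5.42, 5.23 and 5.24 unstimulated and 6.37, 5.55 and 6.73 after IL-33 in WT, and in ST2KO 6.08, 5.69 and 6.23 unstimulated and 5.07, 5.82 and 5.43 after IL-33; for 9 of the 12 arrays compared, leaving out that array ended the call, with adjusted p up to 0.131. The Fabp5 call also ended with no background correction (-0.61, adjusted p = 0.085), with the authors' processed values (-1.46, adjusted p = 0.056), with no filter on dim probes (-1.48, adjusted p = 0.108) and with only the groups compared (-1.48, adjusted p = 0.0883). Groups of 3 arrays were too small for the test of a single array far from the others.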

How the results depend on the processing

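In 1549 recomputed values of 84 named changes, none changed sign, 1450 kept their side of the threshold and 99 no longer passed. With only the groups compared in the fit, which leaves fewer samples, 6 of 29 genes passed for IgE in WT (Lss, Nsdhl, Hsd17b7, Srebf2, Fads1 and Fads2) in place of 10, beside 38.2% of all genes in that fit. The same setting went the other way for IgE in ST2KO, with 15 of 29 genes in place of 11, beside 53.1% of all genes. The cause of either shift was not tested. Ebp, the 1 gene that passed for ST2KO against WT after IL-33 with no background correction and with array weights, was the same gene in both; the cause was not tested. Leaving out 1 array at a time gave 7 to 11 genes for IgE in WT, 9 to 14 for IgE in ST2KO, 6 to 8 for IL-33 against IgE, 0 to 1 for ST2KO against WT after IL-33 and 0 in the other comparisons. Lss, Nsdhl, Hsd17b7, Srebf2 and Fads1 for IgE in WT, and Mvk, Idi1, Lss, Nsdhl, Hsd17b7, Scd1, Fads1 and Lpin1 for IgE in ST2KO, passed under every setting run. With the replicate number as a block 11 genes passed for IgE in WT, 14 in ST2KO and 8 for IL-33 against IgE, and with the block within genotype 12, 14 and 8; it ended no call among the 29 genes. With array weights the calls over all genes went from 377 to 641 for IL-33 in WT, from 605 to 1347 for ST2KO against WT after IL-33 and from 176 to 300 for the difference of IL-33 responses; with only the groups compared IL-33 in WT gave 197. Disagreements between probes of a gene and dim probes (Idi1, Fasn, Tm7sf2 and Sc5d) limit single genes.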
